A study of Mus musculus with 232 samples.

Results

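The mRNA of single Dgcr8-/- mouse embryonic stem cells that had received a let-7 miRNA mimic was compared with that of Dgcr8-/- cells that went through the same transfection without a mimic (mock). The let-7 cells were those deposited under let-7 titles and the Dgcr8-/- plus let-7 genotype, and the mock cells those labelled Dgcr8-/- alone. Of 182 cells deposited in the series, 48 were let-7 cells and 60 were mock cells. The let-7 cells held 3 pairs of nearly identical profiles, with a correlation of 0.987 to 0.991 between the cells of a pair, and each pair was counted as 1 cell, which left 45 let-7 and 60 mock cells, 105 in all. The other cells of the series, Dgcr8-/- cells given a miR-294 mimic and wild-type V6.5 cells, are used here only as reference values for the marker genes. Among the 58 deposited miR-294 cells 1 such pair was also counted as 1 cell, which left 57.

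Both groups lacked Dgcr8, the partner of Drosha that cuts primary miRNA transcripts, so neither could make canonical miRNAs of its own. Both were grown with serum, leukaemia inhibitory factor (LIF) and the inhibitors PD0325901 (against MEK, the kinase upstream of ERK) and CHIR99021 (against GSK3), were transfected with Dharmafect 1 and were collected 24 h later. They differed in the mimic and in the Fluidigm C1 chip on which they were captured. The study loaded 1 chip per condition and the labels name no separate cultures, so each group is 1 sample. The chip and the mimic cannot be told apart, no difference below has a replicate check, and no test between the groups was made. The standard deviation (SD) given with a mean describes the spread over the cells of a group, and counts of genes at least 2-fold apart stand in for test results.

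The let-7 family is among the most widely conserved miRNA families of animals. It accumulates as embryonic cells differentiate, and in stem cells its maturation is held back by the RNA-binding protein Lin28. A miRNA guides Argonaute proteins to mRNAs through its seed, bases 2 to 8, which pairs with complementary stretches in 3′ untranslated regions (UTRs), and the bound mRNA is then translated less and degraded. Classic let-7 targets are growth-promoting genes of the early embryo, such as Hmga2, Trim71 and the Igf2bp genes.

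The cell titles name the mimic let-7i, the description of the series names let-7b and the methods of the study name let-7c. The mature mouse forms of these 3 miRNAs (RefSeq, GRCm38.p6) are shown because they share the seed that the target comparisons below rest on. The seed is in capitals.
let-7b: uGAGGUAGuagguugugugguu
let-7c: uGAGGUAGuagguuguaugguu
let-7i: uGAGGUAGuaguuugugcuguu
They are encoded at chr15:85707325-85707346 (plus strand) for let-7b, at chr15:85706616-85706637 and chr16:77599672-77599693 (both plus strand) for let-7c, and at chr10:122985698-122985719 (minus strand) for let-7i. All 3 are 22 bases long. Counted from the 5′ end, let-7c differs from let-7b by G17A and let-7i differs from let-7b by G12U, U18C and G19U, all outside the seed. The perfect match to the seed in an mRNA reads CTACCTC, and it is the same for the 3 forms.

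The total count per cell, summed over the sequencing runs of the cell, was 808409 to 3979274 (median 1521869) in let-7 cells and 514728 to 3564131 (median 1574732) in mock cells. After each cell was thinned at random to 500000 counts, a median of 7175 genes was detected in let-7 cells (5423 to 8907) and 7126 in mock cells (5546 to 9049), against 8022 and 7784 before thinning. The 2 runs of 1 let-7 cell correlated at only 0.502, and the comparisons were repeated without it. The 2 runs of 1 wild-type cell correlated at 0.512, and that cell was kept in the reference values. Reads of Dgcr8 were present in 42 of 45 let-7 and 54 of 60 mock cells, with a mean normalized count of 41.2 ± 64.3 and 51.5 ± 117.3 (SD over cells), against 118.2 ± 163.9 in 16 wild-type cells. Reads from outside the deleted exon check nothing about the knockout. All 10 naive stem cell markers on the list, among them Pou5f1, Sox2, Esrrb and Zfp42, were counted widely enough to be compared in these cells.

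The expected count of each gene was divided by a size factor for the cell, and the log2 ratio of a gene is the log2 of its mean normalized count in let-7 cells over that in mock cells. Of 10179 genes counted widely enough to be compared, 803 (7.89%) were at least 2-fold lower and 1612 (15.8%) at least 2-fold higher in let-7 cells. The median log2 ratio of all compared genes was 0.16, and the ratios below are best read against it. Counts of lower and higher members of a list are likewise to be read against the 7.89% and 15.8% of all genes. The split into lower and higher genes moved with the scaling. With summed counts scaled by the trimmed mean of M values (TMM) the median was -0.06, and 1154 genes were lower and 1159 higher. When the ratios were centred on their own median, 1069 were lower and 1272 higher with size factors, and 1055 and 1281 with TMM.

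Among the most strongly lowered genes were known let-7 targets that belong to the growth programme of early embryonic cells. The 4 transfection markers Sall4, Trim71, Gng5 and Ftl1 were all at least 2-fold lower, with a median log2 ratio of -2.04. They were picked as markers with earlier results of these data known, so their direction is not independent evidence. Ftl1 is not on the target list of the study and held no seed match in the UTR that was searched. Sall4, a zinc finger factor of the pluripotency network (chr2:168748332-168767943, minus strand, GRCm38), ranged from 0 to 1194 normalized counts in let-7 cells with a median of 163, and from 186 to 2833 in mock cells with a median of 1024. Its level was below that of the lowest mock cell in 28 of 45 let-7 cells, and 1 let-7 cell was above the mock median. The mean fell from 1104 ± 523 to 209 ± 232, a log2 ratio of -2.40. As summed expected counts these levels rested on 10990 counts in let-7 cells (95% exact Poisson interval 10785 to 11197) and 76063 in mock cells (75523 to 76605). Such intervals, and those given for shares of cells below, cover counting error only, because the reads carry no molecular identifiers.

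Trim71, a ubiquitin ligase and mRNA repressor (chr9:114507133-114564369, minus strand), ranged from 0 to 523 normalized counts in let-7 cells (median 113) and from 129 to 1963 in mock cells (median 642). All 45 let-7 cells lay below the mock median and 23 of them below the lowest mock cell, with a log2 ratio of -2.17. Gng5, a gamma subunit of heterotrimeric G proteins (chr3:146499807-146505572, plus strand), ranged from 0 to 122 (median 28.4) in let-7 cells against 6.03 to 392 (median 109.9) in mock cells. It was below the lowest mock cell in 10 let-7 cells, and its log2 ratio was -1.71. Ftl1, the light chain of ferritin that stores iron (chr7:45457944-45459884, minus strand), ranged from 677 to 13478 in let-7 cells (median 1847) and from 1621 to 33623 in mock cells (median 7906). Its log2 ratio was -1.91, with 20 let-7 cells below the lowest mock cell. Of the 31-base stretches of its transcripts, 64.1% also occur in other genes, so the assignment of its reads is uncertain.

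In the other cells of the series all 4 genes had higher means than in let-7 cells, but some lay below mock. Mock means were 1104 for Sall4, 713 for Trim71, 127.2 for Gng5 and 9071 for Ftl1. Trim71 and Ftl1 in wild-type cells and Gng5 in miR-294 and wild-type cells were below these mock means. Mean normalized counts of Sall4 were 1194 in 57 miR-294 cells and 1149 in 16 wild-type cells, and those of Trim71 were 1001 and 669. Gng5 was at 103.5 and 110.9 and Ftl1 at 11100.5 and 6060 in these cells. The let-7 cells were the group with the lowest mean of each of the 4 genes in these files. The study removed a few transfected cells that lacked lower target levels, so the deposited let-7 cells had in part been selected for low targets.

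The matches to the seed in the 3′ UTRs of markers and of other strongly lowered genes were read from the Gencode M21 annotation of GRCm38, in the longest UTR of each gene. They are shown because they are the stretches with which the mimic can pair. Each line holds 22 bases of the mRNA strand with the seed match in capitals.
Sall4, chr2:168748940-168748961, minus strand: gggctttaatttatCTACCTCa
Trim71, chr9:114512472-114512493, minus strand: acattgcctaagtcCTACCTCa
Trim71, chr9:114512376-114512397, minus strand: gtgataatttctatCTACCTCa
Trim71, chr9:114509047-114509068, minus strand: ttagtatggattttCTACCTCa
Trim71, chr9:114509021-114509042, minus strand: tggcaaaaagttgtCTACCTCa
Gng5, chr3:146505443-146505464, plus strand: tcagtccttaacatCTACCTCt
Rrm2, chr12:24713348-24713369, plus strand: aaaaagctgtgtagCTACCTCa
Hmga2, chr10:120364224-120364245, minus strand: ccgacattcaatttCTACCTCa
Fgf4, chr7:144863860-144863881, plus strand: aattctatccccatCTACCTCa
Trim6, chr7:104233459-104233480, plus strand: tactgattatagatCTACCTCa
Trim6, chr7:104233504-104233525, plus strand: tactgattatagctCTACCTCa
Trim6, chr7:104233549-104233570, plus strand: tactgattatagatCTACCTCa
Trim6, chr7:104233594-104233615, plus strand: tactgattatagatCTACCTCa
Trim6, chr7:104233639-104233660, plus strand: tactgattatagctCTACCTCa
Sall4 and Gng5 held 1 match each, Trim71 held 4, and an adenine followed the match in Sall4 and in all 4 of Trim71. Hmga2 held 4 matches, of which the first is shown. Trim6, a ubiquitin ligase of stem cells that is not on the target list of the study, held 6 matches, of which the 5 shown lie in a repeat at a spacing of 45 bases. Ftl1, Tk1, Lefty1 and Nanog held no match in the UTR that was searched.

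Trim6 was present in all cells and ranged from 2.90 to 523.6 normalized counts in let-7 cells (median 20.4) against 2.41 to 907 in mock cells (median 143), with a log2 ratio of -2.02. It was below the mock median in 41 of 45 let-7 cells, although the ranges of the groups overlapped. Hmga2, an architectural chromatin protein, was at 32.3 ± 54.2 against 145.5 ± 151.2 (log2 ratio -2.17). Its median was 0.97 in let-7 and 104.4 in mock cells.

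**Figure D1:**
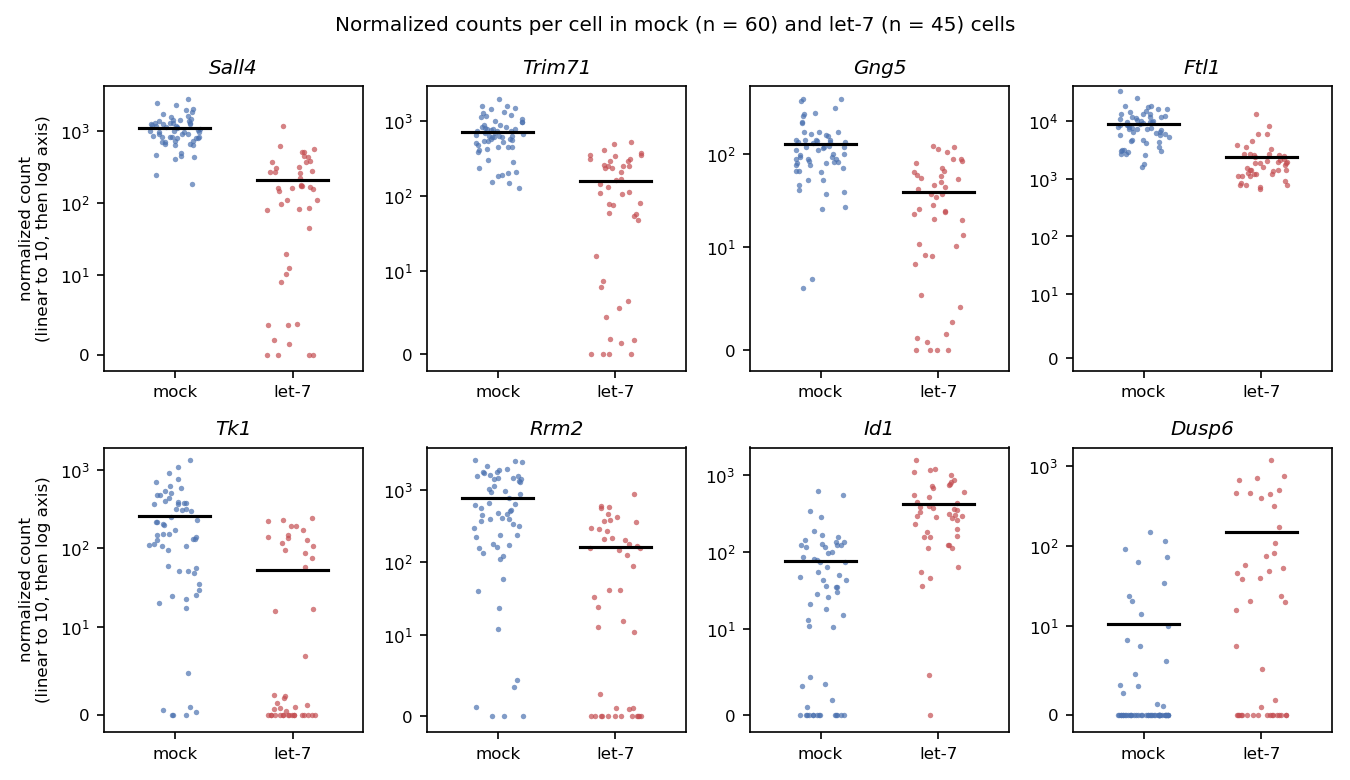
Normalized counts of 8 genes in each mock cell (blue, n = 60) and each let-7 cell (red, n = 45), on an axis that is linear up to 10 and logarithmic above. Each point is a cell and the black bar is the group mean. Of 45 let-7 cells, 28 lie below the lowest mock cell for Sall4, 23 for Trim71 and 20 for Ftl1. The let-7 medians are 1.35 for Tk1 and 42.3 for Rrm2, and the means of Id1 and Dusp6 are higher in let-7 cells.

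The study used 171 let-7c targets that it had taken from earlier arrays of transfected Dgcr8-/- cells. The list was chosen on the same treatment, so its direction here is not independent evidence. Of 159 compared members, 78 were at least 2-fold lower and 1 was at least 2-fold higher (Ppp1r15b, log2 ratio 1.39, named after its value was seen), and the median log2 ratio was -0.96. The level summed over the whole list was below the lowest mock cell in 42 of 45 let-7 cells. The study had removed let-7 cells in which these targets were not lower, so that count rests in part on selected cells. The lowest ratios belonged to genes that were nearly lost. The filter on counts pooled the groups, so such genes entered the comparison through cells outside the let-7 group. Their place at the low end rests in part on that. Pfkfb1, a bifunctional regulator of glycolysis, was at 0.56 ± 2.63 normalized counts against 73.1 ± 185.4, from 21 summed counts (13 to 32) in let-7 cells and 3958 (3836 to 4083) in mock cells. Klk10, a secreted serine protease of the kallikrein family, was at 1.02 ± 5.31 against 75.7 ± 120.9, and Zfp473, a zinc finger protein, at 0.74 ± 3.73 against 38.3 ± 104.7.

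Of 26 compared oncofetal genes, chosen as textbook let-7 targets of the embryo, 11 were at least 2-fold lower and 3 higher. The median was -0.63, which became -1.18 with TMM and -1.34 with trimmed means. This list too was chosen with earlier results of these data known, and it holds the markers Sall4, Trim71 and Gng5. Its direction is therefore not independent evidence. Besides Sall4, Trim71, Gng5 and Hmga2, the lower genes included Mycn, a member of the Myc oncogene family, at 14.3 ± 32.7 against 95.2 ± 127.7 (log2 ratio -2.73). Igf2bp2, which stabilises growth-related mRNAs, was at 21.2 ± 52.2 against 113.5 ± 129 (-2.42), and in 21 let-7 cells it was below the lowest mock cell. Dicer1, which cuts miRNA precursors, was at 16.4 ± 42.5 against 51.3 ± 72.04 (-1.65). The 3 higher genes were Ccnd2, a G1 cyclin (1.37), and, named after their values were seen, Igf1r, the receptor of insulin-like growth factor 1 (1.39), and Hras, a Ras protein (1.72). The summed level of the list was below the mock median in 42 of 45 let-7 cells.

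Genes whose products make or carry miRNAs did not move together. Of 27 compared genes of the miRNA machinery, 4 were at least 2-fold lower and 1 was higher, and the median log2 ratio of 0.03 turned to -0.30 with TMM. Tarbp2, a partner of Dicer and a study target, was at 5.49 ± 16.97 against 82.3 ± 110 (-3.90), and Trim71 and Dicer1 are given above. Ago2, which slices target mRNAs, was at 74.6 against 186.5 (-1.32, named after its value was seen). Ago3, a further Argonaute, was at 215.8 ± 287.6 against 62.9 ± 103.6 (log2 ratio 1.78), higher than the highest mock cell in 11 let-7 cells.

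Across all genes, lower ratios went with the number of seed matches. The match was present in the 3′ UTR of 9.02% of 21037 annotated genes with such a region and of 10.3% of 9424 compared ones. The median log2 ratio was 0.18 in 8449 genes without a match, 0.00 in 853 genes with 1 match, -0.40 in 103 genes with 2 and -0.51 in 19 genes with 3 or more. At least 2-fold lower were 6.90% of genes without a match, 15.7% with 1, 26.2% with 2 and 36.8% with 3 or more. At least 2-fold higher were 15.8%, 12.2%, 5.83% and 0%, the last being 0 of 19 genes.

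The study list holds genes selected in part for their seed match, so the same was computed outside it. The median log2 ratio was then 0.18 in 8405 genes without a match, 0.07 in 767 with 1, -0.32 in 80 with 2 and -0.51 in 15 with 3 or more, and 11.5%, 21.2% and 33.3% of the last 3 classes were at least 2-fold lower. Named genes with a match that are not on the list and were lower included Tcf7l1, a repressor of Wnt target genes, at 20.2 ± 29.9 against 127.5 ± 93.1 (-2.66). Its level was below that of the lowest mock cell in 19 of 45 let-7 cells. Fgf4, the autocrine growth factor of stem cells, was at 55.9 ± 101.7 against 206.9 ± 214.4 (-1.89). A match did not mark every gene as lower. Irs2, an adaptor of the insulin receptor, and Kif1a, a kinesin motor, each held 1 match and had log2 ratios of 2.12 and 3.82.

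**Figure D2:**
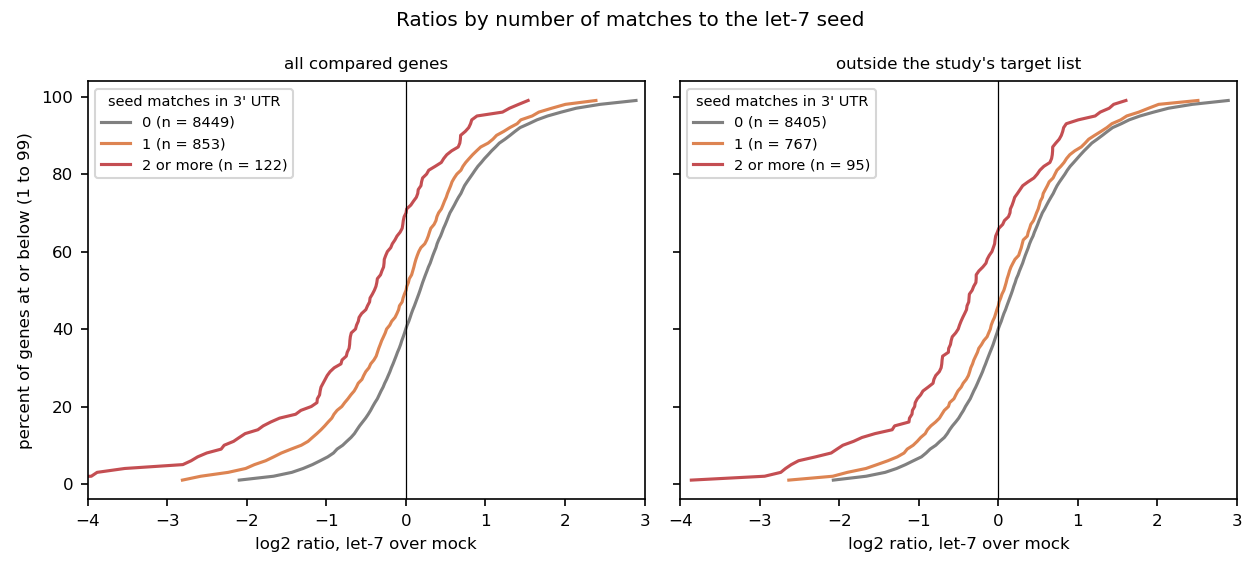
Percent of genes (y axis) at or below each log2 ratio of let-7 over mock cells (x axis), in all compared genes (left) and outside the target list of the study (right), by the number of perfect seed matches in the 3′ UTR. In both panels the curve moves to the left from 0 matches (grey) over 1 match (orange) to 2 or more matches (red).

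Genes of DNA replication had medians below that of all genes, and 2 enzymes that supply deoxynucleotides were among the 10 lowest well expressed genes. Tk1, thymidine kinase, ranged from 0 to 240.8 normalized counts in let-7 cells (median 1.35) and from 0 to 1313 in mock cells (median 152). It was below the mock median in 39 of 45 let-7 cells, with means of 53.1 ± 77.6 and 255.8 ± 277.8 and a log2 ratio of -2.27. Rrm2, the regulated subunit of ribonucleotide reductase, ranged from 0 to 875 (median 42.3) against 0 to 2517 (median 489). It was lower than the mock median in 41 let-7 cells, with a log2 ratio of -2.25, and its UTR held the match shown above, whereas that of Tk1 held none. Dctpp1, which clears deoxycytidine triphosphate, was at 29.1 ± 27.7 against 60.6 ± 51.5 (-1.06). The p53-inducible subunit Rrm2b was the 1 higher gene of the list, at 47.95 ± 86.7 against 22.5 ± 30.6 (1.09, down to 0.69 in other settings). Of 18 compared deoxynucleotide genes 3 were at least 2-fold lower and 1 higher, and the median was -0.51. In percent this is 16.7 and 5.56, against 7.89 and 15.8 of all genes.

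Of 43 compared genes of S phase entry and origin licensing, 5 were at least 2-fold lower and 1 higher, and their median was -0.52. The share of lower members, 11.6%, is near the 7.89% of all genes, and that of higher members is 2.33% against 15.8%. Cdc6, which loads the replicative helicase, was at 57.5 ± 150.9 against 202.6 ± 325.8 (-1.82), and its median was 0 in let-7 cells and 54.5 in mock cells. Mcm10, an initiation factor, was at 94.9 ± 135.8 against 252.4 ± 400.1 (-1.41). Prim1, the primase subunit, was at 93.6 ± 135.1 against 214.1 ± 184.2 (-1.19). Mcm2 and, named after its value was seen, Pola1 had ratios of -1.12 and -1.19, while Chaf1a, which places histones on new DNA, was higher at 1.23. Other genes share 51% of the 31-base stretches of Chaf1a and 33.4% of those of Mcm7, so the assignment of their reads is uncertain. The Mcm family, whose members 2 to 7 form the helicase, was the second lowest of 249 gene families with at least 6 compared members by median (-0.78), and 3 of 9 genes with this symbol were at least 2-fold lower. These were Mcm8 (-2.83), Mcm10 and Mcm2, so that 1 of the 3 belongs to the helicase. Mcm3, Mcm4, Mcm5, Mcm6 and Mcm7 had log2 ratios of -0.91, -0.78, -0.42, -0.36 and -0.58, and Mcm3ap, which shares only the name, of -0.06.

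Genes of mitosis did not move together. Of 48 compared members 4 were lower and 3 higher, with a median of -0.10. Ccnf, a study target that marks proteins for degradation, was at 73.3 ± 164.2 against 286.2 ± 421 (-1.97), and Ttk, a spindle checkpoint kinase, at 27.5 ± 75.4 against 80.3 ± 138.9 (-1.54). Birc5, or survivin, was at 69.2 ± 117.5 against 158.4 ± 168.7 (-1.19, from -1.66 to -0.91 in other settings). Gtse1, a G2 gene that stood on the list of p53 targets, was at 68.2 ± 129.9 against 280.4 ± 309 (-2.04). Knstrn, a spindle protein, was higher (62.2 ± 120.1 against 19.9 ± 41.6, log2 ratio 1.65). Members outside the naming rule that were higher were the proliferation marker Mki67 (440.9 against 198.9, log2 ratio 1.15) and Pttg1 or securin (1.09).

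Among 25 compared cell cycle brakes and G1 cyclins, 2 were lower and 7 higher, with a median of 0.32. These shares are 8% and 28%, against 7.89% and 15.8% of all genes. The members of this list named here are all higher ones. Gadd45a, a stress-induced inhibitor of the cell cycle, was at 55.4 ± 100.6 against 5.14 ± 15.6 (log2 ratio 3.43) and was above the mock median in 39 of 45 let-7 cells. Wee1, the kinase that holds back mitotic entry, was at 36.3 ± 93 against 11.03 ± 21.3 (1.72). Lats1, a kinase of the Hippo pathway, was at 44.9 ± 78.6 against 17.6 ± 37.7 (1.35). Ccnd2 is given above. Targets of p53 were split, with 3 of 26 lower and 3 higher. Perp, a membrane protein of desmosomes, was 1 of the higher ones, at 198.7 ± 235.3 against 29.9 ± 62.6 (2.73) and above the mock median in 42 let-7 cells. Sfn, or 14-3-3 sigma, was at 297.8 ± 547 against 99.7 ± 212.8 (1.58).

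Genes of ribosome biogenesis had a median below that of all genes, whereas those of the ribosome itself did not stand apart. Of 62 compared genes of ribosome biogenesis 6 were at least 2-fold lower and 1 higher, with a median of -0.34. The share of lower members, 9.68%, is near the 7.89% of all genes. Higher members made up 1.61%, against 15.8% of all genes. Imp4, a component of the small subunit processome and a study target, was at 76.6 ± 154.7 against 358.5 ± 254.1 (-2.23), below the mock median in 43 of 45 let-7 cells. Rrp12 (-1.32), Bop1 (-1.24) and the RNA polymerase I subunit Polr1b (-1.13) were also lower. None of 83 compared cytosolic ribosomal proteins was 2-fold apart, and their median of 0.10 became -0.09 with TMM. Of 67 translation factors 2 were lower and 4 higher (median -0.16). The cap-binding protein Eif4e2 was lower at 169.9 ± 252.9 against 388.8 ± 197.9 (-1.19).

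Pluripotency genes were still expressed in let-7 cells, but several were lower. Of 10 naive stem cell markers 2 were at least 2-fold lower and none higher, with a median of -0.60. The level summed over the markers ranged from 1732 to 13421 in let-7 cells (median 5882) and from 2990 to 17137 in mock cells (median 9004), and it was below the mock median in 41 of 45 let-7 cells. Nanog, a homeodomain factor at the core of the network, ranged from 0 to 1388 normalized counts in let-7 cells (median 43.8) and from 0 to 1978 in mock cells (median 576). The mean was 229.4 ± 329.8 against 648.5 ± 415.9 (-1.50), and 38 let-7 cells lay below the mock median, while the highest let-7 cells reached mock levels. Tfcp2l1, a factor of the naive state that acts downstream of LIF, was at 1049 ± 1118 against 1988 ± 958 (-0.92), short of 2-fold. Sox2 was at 35.9 ± 52.6 against 66.1 ± 62.5 (-0.88).

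Of 23 compared core pluripotency factors 5 were lower and 1 higher (median -0.23). That is 21.7% and 4.35%, against 7.89% and 15.8% of all genes. Prdm14, a repressor that protects the naive state, was at 30.6 ± 110.1 against 88.3 ± 182.7 (-1.53), and Klf5, a Krüppel-like factor, was higher at 119.7 ± 131 against 35.5 ± 49.8 (1.75). Nr5a2 (-2.74) and Tcl1 (-1.28) were lower too and were named after their values were seen. Genes of the Dppa and germline group were divided, with 3 of 20 lower (15%) and 5 higher (25%). Fbxo15, a classic stem cell reporter gene, was at 95.1 ± 165.4 against 293.4 ± 270 (-1.62). Spp1, the secreted protein osteopontin, ranged from 1326 to 19524 in let-7 cells (median 4953) and from 203 to 7733 in mock cells (median 2157). It was higher than the mock median in 44 of 45 let-7 cells, with a log2 ratio of 1.30.

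Mouse stem cells break down threonine to feed their one-carbon pool. Tdh, the dehydrogenase of that route, was at 401 ± 432 against 1060 ± 641 (-1.40), lower than the mock median in 39 let-7 cells. Gcat, the next enzyme, was at 88.4 ± 194.5 against 193.5 ± 236.3 (-1.13), though 46.9% of its 31-base stretches also occur in other genes. The mitochondrial folate enzyme Mthfd2 went the other way (247 ± 258 against 91.8 ± 114, log2 ratio 1.43), as did the glutamine and neutral amino acid transporter Slc1a5 (1.62). Of 21 compared genes of threonine, serine and one-carbon metabolism 4 were lower and 3 higher, with a median of -0.55. Their shares were 19% and 14.3%, against 7.89% and 15.8% of all genes. Glycolysis (22 genes, 1 lower and 1 higher, median -0.23) and cholesterol synthesis (23 genes, 1 lower and 1 higher, median -0.19) held few such genes. Of 80 nuclear genes of oxidative phosphorylation 2 were lower and 1 higher.

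Among signalling pathways, 40.9% of the compared genes of Nodal and TGF-beta, 30% of those of FGF and ERK and 42.9% of those of LIF and Stat3 were at least 2-fold higher, against 15.8% of all genes, whereas the Ras and insulin (15.4%) and Wnt (5.26%) lists did not exceed that share. The Id genes, which encode inhibitors of basic helix-loop-helix factors and are targets of bone morphogenetic protein (BMP) and Smad signalling, stood out. Id1 (chr2:152736251-152737410, plus strand) ranged from 0 to 1545 normalized counts in let-7 cells (median 314) and from 0 to 612 in mock cells (median 35.7). It was above the mock median in 43 of 45 let-7 cells and above the highest mock cell in 11, with a log2 ratio of 2.46. Id3 ranged from 2.68 to 5164 (median 1003) against 0 to 2807 (median 160.1) and was above the mock median in 42 let-7 cells (log2 ratio 2.13). Id2 was at 449 ± 417 against 120.3 ± 194.8 (1.90).

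Of 22 compared genes of Nodal and TGF-beta signalling, the list that holds the Id genes, 9 were at least 2-fold higher and 1 was lower, and the median was 0.52. The lower gene was Lefty1, a secreted inhibitor of Nodal and the lowest of the well expressed genes, at 32.6 ± 113.1 against 227.3 ± 522.2 (-2.80). After thinning to equal depth it was detected in 35.6% of let-7 and 75% of mock cells (37.8% and 75% without thinning). Smad3, a signal transducer of the pathway, was at 123.8 ± 268 against 39.2 ± 109.5 (1.66), with medians of 0 in both groups. The Smad family had the second highest median of the 249 families (0.97), with 3 of 6 members at least 2-fold higher, but Smad2 and Smad5 did not keep this size in every other setting tried.

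Of 20 compared feedback and target genes of FGF and ERK 6 were higher and 2 lower, with a median of 0.67, in cells in which MEK was inhibited. Dusp6, a phosphatase that switches ERK off, ranged from 0 to 1191 in let-7 cells (median 20.2) and from 0 to 150.2 in mock cells (median 0), and it exceeded the highest mock cell in 11 let-7 cells (log2 ratio 3.82). Ier3, an immediate early gene, was at 56.2 ± 115.4 against 3.73 ± 10.9 (3.91), and Fos, a subunit of AP-1, at 111.4 ± 169.4 against 22.6 ± 59.2 (2.30). The ligand Fgf4, given above, was the lower member with a seed match.

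LIF and Stat3 signalling keeps mouse stem cells undifferentiated. Of 14 compared genes of this pathway 6 were higher and none lower, with a median of 0.80. The level summed over the list went the other way, at 2656 against 2921 normalized counts, with 29 of 45 let-7 cells below the mock median. The receptor Lifr was at 486 ± 596 against 157 ± 172 (1.63) and was above the highest mock cell in 12 let-7 cells. The kinase Jak2 was at 81.2 ± 143.2 against 30.3 ± 83.2 (1.42), and the feedback inhibitor Socs2 at 162.7 ± 194.2 against 53.3 ± 97.4 (1.61), above the mock median in 39 cells. Socs genes, which encode inhibitors of cytokine signalling, were the family with the highest median (1.31), with 4 of 6 members at least 2-fold higher. Socs4 had a ratio of 1.52, Socs5 4.04 and Socs6 1.09, whereas Socs3, the best known Stat3 target, was at 16.3 ± 45.4 against 19.7 ± 63.4 (-0.27).

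**Figure D3:**
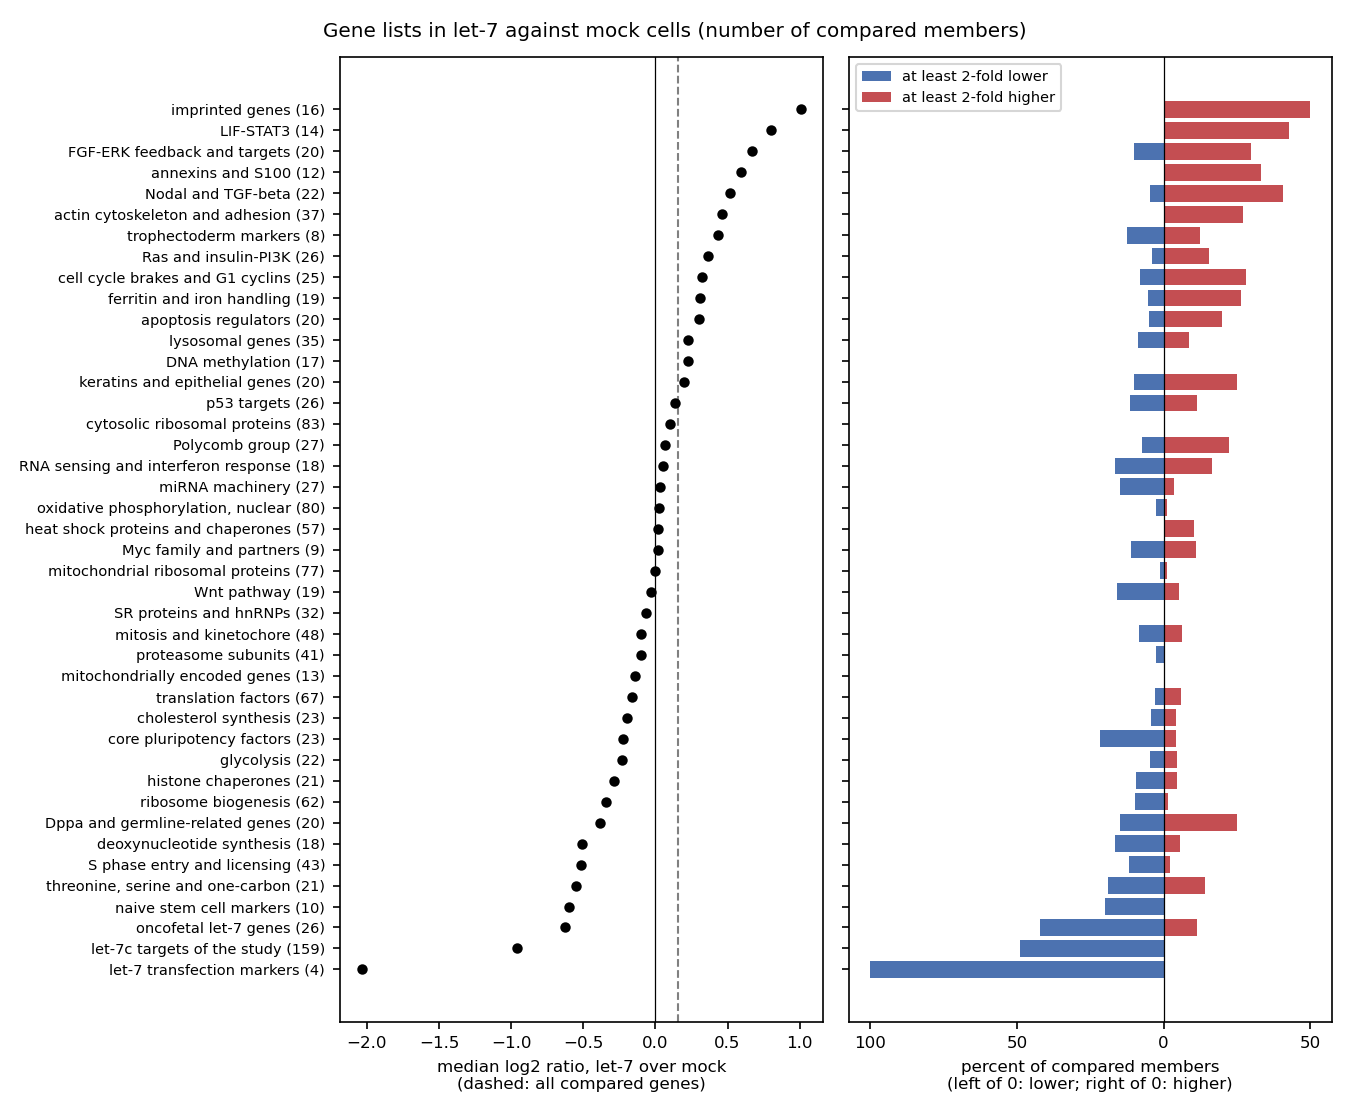
Gene lists ordered by the median log2 ratio of let-7 over mock cells (left, dashed line at 0.16 for all compared genes) and percent of compared members at least 2-fold lower (right panel, blue, left of 0) or higher (red, right of 0). The number of compared members follows each name, and lists with only 2 are not drawn. The medians run from -2.04 for the transfection markers to 1.01 for imprinted genes.

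Of 26 compared Ras and insulin pathway genes 4 were higher and 1, Gng5, was lower (median 0.37), shares of 15.4% and 3.85% against 15.8% and 7.89% of all genes. Wnt pathway genes did not move together, with 3 of 19 lower and 1 higher. Lrp5, a Wnt co-receptor, was at 15.6 ± 10.2 against 42.2 ± 52.1 (-1.44). Cdx1 (-2.20) was lower and Sp5 (3.38) higher, both Wnt targets at low levels that were named after their values were seen.

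Genes of the cytoskeleton and of adhesion were higher or near the bulk, and none was 2-fold lower. Of 37 compared members 10 were higher, with a median of 0.46. Higher members were 27% of the list, against 15.8% of all genes. Limch1, an activator of non-muscle myosin, was almost silent in mock cells, with 55 summed counts (41 to 72) in 60 cells, and had 3140 (3031 to 3252) in 45 let-7 cells. It passed the filter on counts through cells other than mock. Its mean was 76.04 ± 133.7 against 0.62 ± 2.96, and 17 let-7 cells were above the highest mock cell. Capn2, a calcium-dependent protease, was at 192.9 ± 195.7 against 27.1 ± 77.98 (2.83), above the highest mock cell in 12. Cdc42bpa, a kinase that acts on myosin, was at 512 ± 656 against 96.9 ± 190.1 (2.40), and Lgals1, a galectin, at 105.7 ± 115.6 against 30.3 ± 53.9 (1.80).

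Annexins and S100 proteins, which bind calcium at membranes, had 4 of 12 members higher and none lower, with a median of 0.59. The higher share was 33.3%, against 15.8% of all genes. S100a6 was at 216.4 ± 268.9 against 39.8 ± 152.8 (2.44) and S100a10 at 183.4 ± 148.3 against 77.5 ± 73.5 (1.24). Anxa5 had a log2 ratio of 1.39 and Anxa6 of 1.30, the latter down to 0.92 in other settings. Of 20 keratins and epithelial genes 5 were higher and 2 lower, with a median of 0.20. That is 25% and 10%, against 15.8% and 7.89% of all genes. Dsp, which anchors desmosomes, was at 123.1 ± 355.7 against 32.9 ± 179.3 (1.91). Krt18 was at 72.4 ± 295 against 150.5 ± 979.9 (-1.05), but this ratio rested on mock cells of up to 7564 and turned to 0.63 with trimmed means.

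Imprinted genes, of which each cell normally uses 1 parental copy, had the highest median of all lists. Of 16 compared members 8 were at least 2-fold higher and none lower, with a median of 1.01. The higher share was 50%, against 15.8% of all genes. Meg3, a non-coding RNA of the Dlk1-Dio3 cluster, ranged from 0 to 5045 in let-7 cells (median 341) and from 0 to 2096 in mock cells (median 71.5), and was above the mock median in 39 of 45 let-7 cells (1.73). Mirg and Rian, further RNAs of the cluster and hosts of small RNAs, had log2 ratios of 1.6 and 1.36, the latter down to 0.98 in other settings. Peg3, a paternally expressed zinc finger gene, was at 197.1 ± 613.5 against 76.3 ± 183.3 (1.37, down to 0.83 in other settings), with 1 let-7 cell at 4035.

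Iron and haem genes shifted in both directions. Ftl1 was the 1 lower gene among 19 compared members and 5 were higher, with a median of 0.31. In percent this is 5.26 and 26.3, against 7.89 and 15.8 of all genes. The ferritin heavy chain Fth1, named after its value was seen, was higher at 1592 against 708 (log2 ratio 1.17), so the mean of the light chain was lower and that of the heavy chain higher. Hmox1, the stress-induced enzyme that degrades haem, was at 562.6 ± 937.2 against 118 ± 259.9 (2.25). Slc40a1, the iron exporter, was at 84.2 ± 199.8 against 32.1 ± 196 (1.39) and was detected in 44.4% of let-7 and 6.67% of mock cells (48.9% and 6.67% without thinning). Sqstm1, an autophagy receptor, was at 866.2 ± 749.4 against 231.2 ± 358 (1.91) and was above the mock median in 40 of 45 let-7 cells.

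Among apoptosis regulators 4 of 20 were higher and 1 lower, with a median of 0.30. These shares, 20% and 5%, are near those of all genes. Mcl1, which protects cells from death, was at 416.9 ± 301.9 against 168.4 ± 125 (1.31), above the mock median in 37 let-7 cells, and Bid, which promotes death, at 139 ± 204.6 against 56.2 ± 116.2 (1.31). Heat shock proteins and chaperones had 6 of 57 higher and none lower (median 0.02, -0.24 with TMM), and the 10.5% higher members are fewer than the 15.8% of all genes. The level summed over the list was lower, at 42042 against 53323 normalized counts, and was below the mock median in 42 of 45 let-7 cells and below the lowest mock cell in 18. Hspb1 was 1 of the higher ones, at 243.7 ± 240.6 against 110.5 ± 100.9 (1.14, down to 0.80 in other settings). Other genes share 55.4% of its 31-base stretches.

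Chromatin genes differed by list. None of 17 compared DNA methylation genes was 2-fold apart (median 0.22), nor was any of 32 SR proteins and hnRNPs of RNA splicing (median -0.06). Of 27 Polycomb genes 6 were higher and 2 lower (median 0.07, -0.10 with TMM). That is 22.2% and 7.41%, against 15.8% and 7.89% of all genes. Of 21 histone chaperones 2 were lower and 1 higher (median -0.29), and their summed level, 15043 against 23248 normalized counts, was below the mock median in 45 of 45 let-7 cells. Set, which belongs to them, was lower in 44 of 45 let-7 cells than the mock median, at 3792 ± 1484 against 8103 ± 2688 (-1.09), though 31.3% of its 31-base stretches also occur in other genes. Asf1b, a further histone chaperone, was at 126.6 ± 172.2 against 294.3 ± 289.7 (-1.22). Proteasome subunits (1 lower of 41) and mitochondrial ribosomal proteins (1 lower and 1 higher of 77) had few members past 2-fold.

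Few markers of most other lineages were counted, and each of the primed epiblast, primitive endoderm, mesendoderm and neuroectoderm lists had only 2 genes counted widely enough to be compared. Sox17, Gata6 and Foxa2 of the primitive endoderm were at 0 in every let-7 and mock cell. The summed level of the 13 primitive endoderm genes ranged from 0 to 632.6 in let-7 cells (median 3.14) and from 0 to 1381 in mock cells (median 1.45). Nes, a marker of neural progenitors, was at 36.7 ± 83.9 against 10.99 ± 30.5 (1.74). Of the 2 compared neuroectoderm genes, however, 1 had a log2 ratio above 0 and 1 below it. The mean summed level of that list was 111.4 in let-7 cells and 129.6 in mock cells. The trophectoderm list had 8 of 12 genes compared, with 1 higher and 1 lower and a median of 0.43, which became 1.09 with trimmed means. Its summed level ranged from 1.14 to 3703 in let-7 cells (median 296) and from 9.40 to 13159 in mock cells (median 164.5), and Gata2 was at 59.4 ± 149.2 against 10.4 ± 39.7 (2.51).

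Of the 13 feeder fibroblast markers, the defining genes Col1a2, Col3a1, Postn and Lum were at 0 in all cells of both groups and Col1a1 was at 0 in let-7 cells. The summed level of the list ranged from 502 to 7970 in let-7 cells (median 2732) and from 343 to 4346 in mock cells (median 1290). Vim, an intermediate filament protein, and Fn1, fibronectin, held most of it. Vim was at 1874 ± 1200 against 680.5 ± 486.2 (1.46) and Fn1 at 995 ± 700 against 845 ± 658 (0.24).

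Genes that sense foreign RNA or answer interferon were not higher as a group. Of 18 compared members 3 were higher and 3 lower, with a median of 0.05 (-0.01 with totals scaled per cell). Each share is 16.7%, against 15.8% higher and 7.89% lower of all genes. Stat2, a transducer of interferon signals, had a log2 ratio of 1.10 and Eif2ak2, the kinase activated by double-stranded RNA, of 1.07, but both fell short of 2-fold in at least 1 other setting. Mavs, the adaptor of RNA sensors, was at 16.1 ± 68.2 against 81.6 ± 223 (-2.34). The summed level of the list ranged from 421.5 to 4085 in let-7 cells and from 731 to 4558 in mock cells, and it was above the mock median in 31 of 45 let-7 cells.

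Of the 10 highest ratios among well expressed genes (a mean of at least 100 normalized counts), 8 belonged to predicted genes with Gm names whose sequences recur in the transcriptome. Gm10800 ranged from 0 to 61346 normalized counts in let-7 cells (median 5700.4) and from 30.7 to 12588 in mock cells (median 625). It was above the highest mock cell in 12 let-7 cells and below the lowest in 2, with a log2 ratio of 2.88. Gm26870 was at 8722 ± 12717 against 1212 ± 1936 (2.85), and Gm11168, with the highest ratio of these genes, at 911.9 ± 1385 against 108 ± 169.8 (3.08). Gm10717, Gm10719, Gm10721, Gm10801 and Gm21738 had ratios of 2.73 to 2.85. Between 36.2% (Gm10801) and 89.3% (Gm10721) of their 31-base stretches occur in other annotated genes, so reads could not be placed on 1 of them with certainty and the 8 values are not independent. The other genes among the 10 were Perp and Pla2g7, a secreted phospholipase (244.4 ± 264.5 against 37.8 ± 85.7, log2 ratio 2.69). Among the 10 lowest were also Ckmt1, the mitochondrial creatine kinase (39.7 ± 81.04 against 183.5 ± 268, -2.21), and Golga7, a Golgi protein and study target (-2.07).

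How many cells express a gene was read from the share of cells with at least 1 count after thinning to 500000 counts per cell. The share was lower by at least 30 percentage points for 162 genes (1.59%) and higher by as much for 146 (1.43%). Of the 159 compared study targets 42 had such a lower share, in let-7 cells that had in part been selected for low targets. Among compared genes with a 3′ UTR, 59 of 975 with a seed match (6.05%) and 99 of 8449 without one (1.17%) did. Klk10 was detected in 8.89% of let-7 cells (95% exact binomial interval 2.48 to 21.2) and in 63.3% of mock cells (49.9 to 75.4). Without thinning its shares were 8.89% and 68.3%.

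The other losses included further study targets. Tarbp2 and Dna2, a nuclease and helicase of replication, were each detected in 24.4% of let-7 and 75% of mock cells (28.9% and 76.7% without thinning for Tarbp2, 51.1% and 81.7% for Dna2). Nme4, a mitochondrial nucleoside diphosphate kinase, was detected in 31.1% and 83.3% (35.6% and 86.7% unthinned). Fgf4 was detected in 40% and 91.7% (44.4% and 93.3% unthinned), and Zfhx2, a zinc finger homeodomain factor, in 35.6% and 96.7% (44.4% and 98.3% unthinned). Mtmr7, a lipid phosphatase, was found in 31.1% and 81.7% (35.6% and 85% unthinned), and the gene ENSMUSG00000043858, which has no symbol in the files, in 37.8% and 95% (46.7% and 96.7% unthinned).

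The 8 genes with the largest gain in share are given next. Stom, the membrane protein stomatin, was detected in 62.2% of let-7 cells (46.5 to 76.2) and in 8.33% of mock cells (2.76 to 18.4), and in 71.1% and 10% without thinning. Foxd1, a forkhead factor, was detected in 60% and 6.67% (66.7% and 11.7% unthinned), although at low levels of 13.1 ± 20.9 and 0.64 ± 2.88 normalized counts. Kif1a was detected in 68.9% and 13.3% (73.3% and 13.3% unthinned). Capn2 was found in 86.7% and 26.7% (88.9% and 28.3% unthinned) and S100a6 in 82.2% and 33.3% (82.2% and 40% unthinned). Rnf128, a membrane ubiquitin ligase, was found in 80% and 31.7% (88.9% and 38.3% unthinned), and Gpnmb, a glycoprotein of lysosome-rich cells, in 62.2% and 13.3% (64.4% and 15% unthinned). Afap1, which crosslinks actin, was detected in 68.9% and 20% (71.1% and 21.7% unthinned), while its mean level was 69.7 ± 186.6 against 56.3 ± 252.2 (0.31). Prom1, which the plot of detected shares leaves out, gained as much as Rnf128, with 66.7% and 18.3%. A mock cell at 1826 held much of the mock mean of Afap1.

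**Figure D4:**
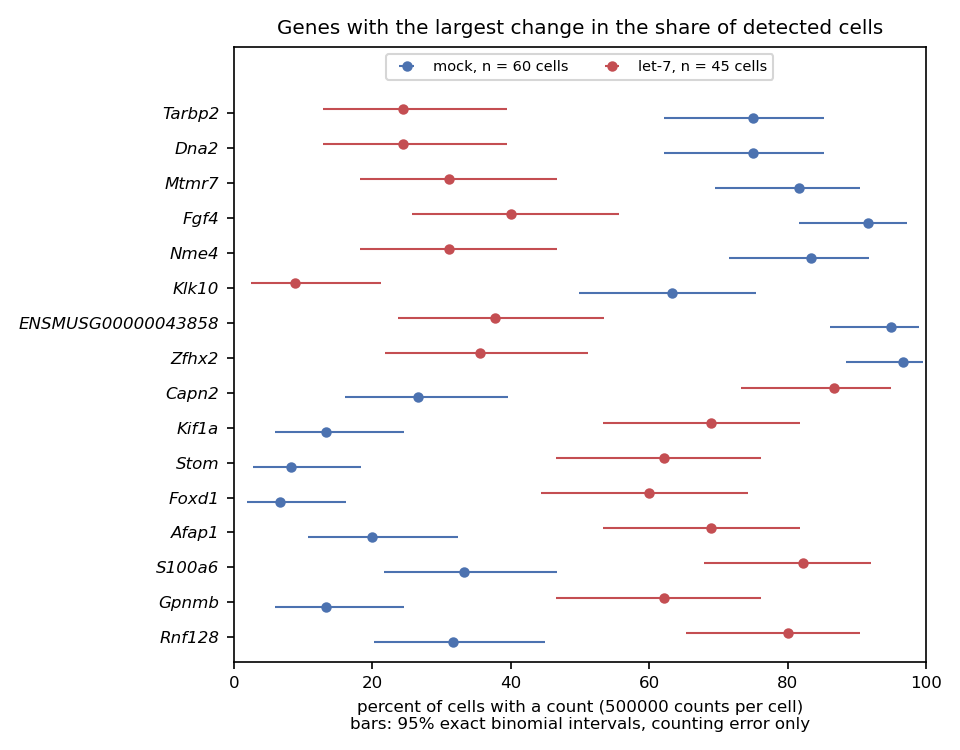
Percent of mock cells (blue, n = 60) and let-7 cells (red, n = 45) with at least 1 count of a gene after thinning to 500000 counts per cell, for the 8 largest losses and the 8 largest gains. Bars are 95% exact binomial intervals that cover counting error only, and the genes were chosen for the size of the difference. The shares run from 8.89% to 40% in let-7 and from 63.3% to 96.7% in mock cells for the losses, and from 60% to 86.7% and from 6.67% to 33.3% for the gains.

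Cell-to-cell spread was measured by the squared coefficient of variation (CV) of thinned counts, divided by the median of the 200 genes nearest in level in the same group. This removes the dependence of the spread on the level. Because that median was taken within each group, it also removes any change in spread shared by genes of a level. Whether let-7 cells were more or less variable as a whole therefore cannot be read from the counts below. Of 3801 genes compared, 204 (5.37%) had at least 2-fold more spread in let-7 cells and 226 (5.95%) at least 2-fold less. The median log2 change in spread was 0.01 in genes without a match, 0.03 with 1 match, -0.10 in 26 genes with 2 and -0.27 in 4 genes with 3 or more, and it was -0.03 in 35 study targets, of which 3 had more and 1 had less.

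The mitochondrially encoded genes shifted towards less spread at nearly the same mean. Their median log2 change in spread was -1.004, and 7 of 13 had at least 2-fold less. All 13 share the mitochondrial genome, so they are not independent observations. Their summed level ranged from 141.7 to 239331 normalized counts in mock cells (median 46808). In let-7 cells it ranged from 13912 to 127499 (median 45307). No setting left the lowest mock cell out of the spread. For mt-Atp6, a subunit of ATP synthase, the CV was 0.49 in let-7 and 1.02 in mock cells (log2 change in spread -2.37). Its levels ranged from 498.5 to 8096 normalized counts in let-7 cells and from 0 to 30607 in mock cells, but 99.5% of its 31-base stretches also occur in other genes, so the assignment of its reads is uncertain. For mt-Nd1, a subunit of complex I with no shared stretch, the CV was 0.53 and 0.76 (-1.30). None of the 13 genes was 2-fold apart in its mean, and their median log2 ratio of -0.14 became 0.05 with trimmed means. Of 81 cytosolic ribosomal proteins 13 had less spread and 1 had more, with a median of -0.18.

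Naive stem cell markers tended to the other side, with a median log2 change in spread of 0.58 over the 9 that were measured. Tfcp2l1 was the 1 marker with at least 2-fold more spread, with a CV of 0.99 in let-7 and 0.48 in mock cells (1.65). The CV of Nanog was 1.35 and 0.64 (0.80). Cenpf, a kinetochore protein of G2 and mitosis, had a CV of 1.90 in let-7 cells and 1.18 in mock cells (2.12), and 8 let-7 cells were above the highest mock cell. Fndc3b and Lonp2, with log2 changes of 2.02 and 2.22, had 4 and 5 let-7 cells above the highest mock cell.

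Several extreme values of spread rested on a cell or a few cells. Sall3, a relative of Sall4, had the largest gain (2.63) with 1 let-7 cell at 6578 and a let-7 median of 5.45 normalized counts. Schip1 (2.57) and Fabp3, a fatty acid binding protein (2.36), each had 1 let-7 cell above the highest mock cell. Other genes share 39.1% of the 31-base stretches of Schip1 and 50.1% of those of Fabp3. The largest loss was that of Anxa1 (-2.59), for which 1 mock cell reached 8683 while the mock median was 12.7. Prdm10 (-2.41) had a mock cell at 2451. When the highest cell of each gene was left out, 110 genes had more spread and 120 had less.

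**Figure D5:**
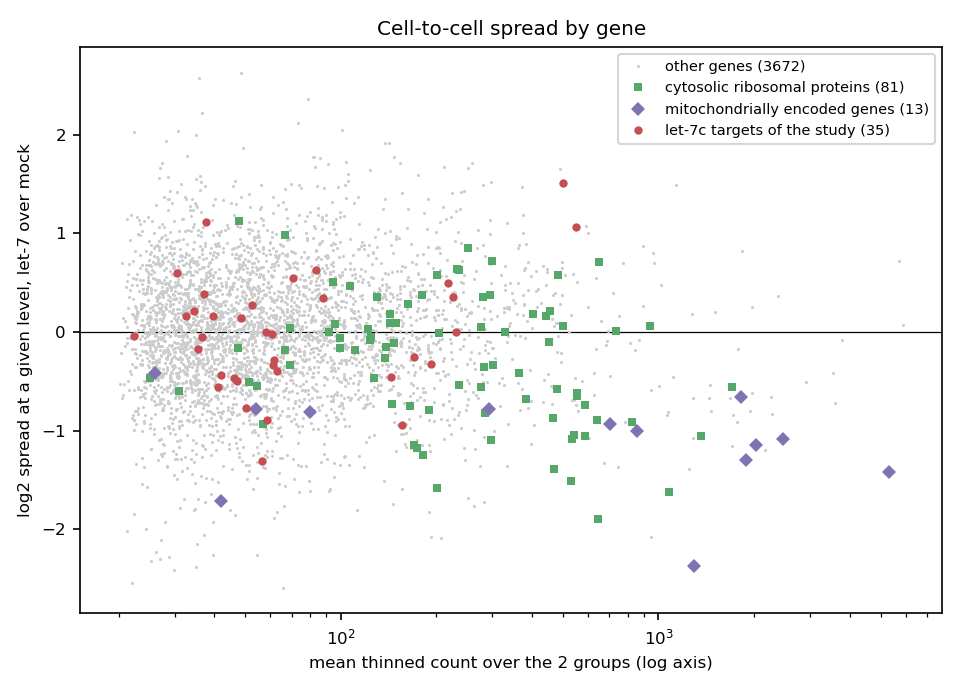
Log2 change in cell-to-cell spread at a given level, let-7 over mock cells (y axis), against the mean thinned count over both groups (x axis, logarithmic), with 1 point per gene for 3801 genes. All 13 mitochondrially encoded genes (purple) lie below 0, whereas the study targets (red) scatter on both sides of it.

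By family names alone, the lowest median of 249 families was that of the Ttll genes, which encode ligases that add amino acids to tubulin (-0.89, 3 of 7 lower and none higher). Ttll12 was at 9.64 ± 27.4 against 54.97 ± 96.99 (-2.51) and Ttll3 at 8.04 ± 26.98 against 36.5 ± 53.6 (-2.18). The third lowest, with symbols that begin with A followed by a number, is not a family but a set of clone names. The third highest was the Tnfrsf family of death and growth receptors (median 0.96, 3 of 7 higher and none lower). Tnfrsf12a, the receptor for TWEAK, was at 85.9 ± 145.7 against 32.6 ± 97.7 (1.40), and Tnfrsf22 at 144.1 ± 612.9 against 26.2 ± 61.6 (2.46), of which 1 let-7 cell at 3807 was a large part and which came to 0.55 in the setting that changed it most. Other genes share 38.5% of the 31-base stretches of Tnfrsf22.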

How the data were processed

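Single cells were captured on Fluidigm C1 chips and their cDNA was made into Nextera XT libraries. The authors counted reads per gene with RSEM 1.2.19 on Gencode M4 and deposited 1 file of expected counts per run. A genome build is not given in the sources used here, and coordinates are those of Gencode M21 on GRCm38. Here, 2 runs of a cell were summed and the estimated counts were divided by DESeq-type size factors, for which 863 genes without a 0 in any cell were used. A gene was compared if it averaged 5 counts or more over all cells of the series and had a count in at least 20% of let-7 and mock cells (10179 of 42493). The groups were pooled for this, so a gene could pass through 1 group alone. Called genes were at least 2-fold apart, or 30 points in the share of cells after thinning. For spread, genes were detected in at least 50% of cells of each group at a thinned mean of at least 20. 3 files titled miR-294 alone carry a miR-294 genotype label and were not counted as mock.

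Genes were named by rule: the 10 lowest and 10 highest ratios at a mean of at least 100 normalized counts in at least 50% of cells that kept 2-fold with trimmed means, the 4 largest ratios of each list at a mean of at least 20, the 8 largest changes in share and in spread each way, and the 3 families at each end. Others were named after their values were seen. The members and lists were chosen with earlier results of these data known. Computation used Python 3.11.15, numpy 2.4.6, scipy 1.17.1, pandas 2.3.3 and edgeR 4.0.16 (for TMM only), and the scripts were tested on simulated data. Alternatives were other scalings, filters, thinning seeds, windows, runs and cells.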

Additional observations from a re-analysis of the deposited data

How the results depend on the processing

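No paired analysis was possible because the cells carry no replicate numbers that pair the groups, and each group is 1 sample. Of the medians of 42 lists, 282 of 294 values under other settings counted as unchanged, as did 193 of 200 for the spread of lists. A value past 2-fold counted so if it stayed past it in the same direction. Other values had to stay short of 2-fold and within 1.5-fold. Of 163 named genes past 2-fold, 137 stayed past it under all 7 alternatives and 2 changed sign. With TMM the median of the oncofetal genes was -1.18, of the study targets -1.22 and of imprinted genes 0.75, and 1154 genes were lower and 1159 higher. With totals scaled per cell (CPM) the study targets were at -1.08 and imprinted genes at 0.88. With trimmed means 1245 genes were lower and 2358 higher, the oncofetal genes were at -1.34, study targets at -1.54, annexins and S100 at 1.07 and trophectoderm markers at 1.09, Krt18 turned to 0.63 and A830018L16Rik to 1.16. Without a filter 3465 genes were lower and 6633 higher. Imprinted genes were at 0.99 with all deposited cells and at 0.94 with cells of at least 1000000 counts, where A830018L16Rik was at 0.53. Leaving out the let-7 cell whose runs differ, chosen after seeing the data, put imprinted genes at 0.98 and the spread of mitochondrially encoded genes at -0.98. The latter was -0.91 with windows of 500 genes, -0.98 without the highest cell of each gene and -0.93 with all deposited cells. Without the highest cell 110 genes had more and 120 less spread and keratins were at 0.12. Without thinning 343 genes had less spread, annexins and S100 were at -1.0 and keratins at -1.11. The cause of these differences was not tested.

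At a median of 1521869 and 1574732 counts per cell, a count of 0 does not show that a gene is silent in a cell. With 1 chip per condition, leaving out a replicate was not possible, and a difference between the chips would appear in every value above.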

Other observations

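The Zscan4 genes, which mark the rare and transient state of stem cells that resembles the embryo at the first cleavage, were high in a few cells. Their summed level was at least 100 normalized counts in 3 of 45 let-7 cells (6.67%, 95% exact binomial interval 1.40 to 18.3) and in 1 of 60 mock cells (1.67%, 0.042 to 8.94). These intervals overlap. The highest let-7 cells reached 44374 and 24776, against 354.2 in the highest mock cell, and the median was 0 in both groups. In the other cells of the series 2 of 57 miR-294 cells (3.51%, 0.43 to 12.1) passed the same level, with a highest value of 30348, and 0 of 16 wild-type cells did. The log2 ratio of Zscan4c, 7.56, therefore describes a few cells. Of its 31-base stretches 91.5% occur in other genes, so the reads of the Zscan4 copies could not be told apart.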
